A study of Mus musculus with 16 samples.

Results

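The regions described here carried an H3K27Ac peak in every WT liver and every inflamed Mdr2-/- liver and lacked one in at least 2 of 5 HCC nodules. Overlapping or adjoining peaks of 15 animals on chromosomes 1 to 19 were merged into 55617 regions. A peak was present in all 10 WT and inflamed livers in 14665 of them, called liver-wide regions below. The members were selected on which of the 15 lists had a peak in them, as the liver-wide regions with a peak in at most 3 of 5 nodules, and there were 849 of them, which is 5.79% of the liver-wide regions. A peak in a region means an overlap of at least 1 bp. Of the 849 regions, 570 still had a peak in 3 of 5 nodules, so that only 279 were missing from most nodules, and the set is called here the regions missing from at least 2 nodules.

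Acetylation of lysine 27 of histone H3 is placed by the acetyltransferases CBP and p300 on nucleosomes around active promoters and enhancers, and it is removed when these elements are shut off. In the liver, such elements are bound by hepatocyte transcription factors and nuclear receptors, and their acetylation follows the state of the tissue. Mdr2 (Abcb4) is the phosphatidylcholine transporter of the hepatocyte's bile canaliculus. Mice without it have bile that injures the biliary tract, with chronic inflammation and later liver tumours.

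WT livers came from FVB.129P2 mice of 14 to 19 months, inflamed livers from FVB.129P2-Abcb4tm1Bor/J mice (Mdr2-/-, germline knockout) of 7 to 8 months, and HCC nodules from Mdr2-/- mice of 14 to 19 months. Every mouse, WT included, received clodronate liposomes at 50 μg per g of body weight 48 h before collection, which deplete macrophages. Each library was from 1 animal, 5 per group, named below by its animal number, and males and females were used without the sex of each animal being given here. Strain, ages and dose are those of the sample records; the paper names the WT strain FVB/NJ, calls the WT mice age matched, and gives other age ranges and another clodronate load. By the records, inflamed livers were younger than both other groups, so that age and stage cannot be told apart in any comparison with them. A nodule is whole tissue, and fewer cells with an acetylated region cannot be told apart from less acetylation per cell. Coordinates are those of NCBI37/mm9. Neither a genome nor an annotation of this build was used here, so that regions are given by position and not by gene.

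Lists were of unequal length. On chromosomes 1 to 19 they held 27722 ± 1390 peaks in WT livers, 37602 ± 1756 in inflamed livers and 32848 ± 6914 in HCC nodules (SD, n = 5 each), and read depth is unknown because the files hold no counts. The scores of peaks ran from 50 upwards with many ties at 3100. They were used as percentiles, within a list or among the liver-wide regions of an animal. Where an animal had several peaks in a region, the best counted. Peaks tied at a score share a percentile. WT animal 130748 stood apart from its group. Likeness between animals is given as a Jaccard index, the base pairs under peaks of both over those under peaks of either. WT 130748 had a mean index of 0.505 to its own group, against 0.666 to 0.706 for the other WT livers. HCC 124711 had the lowest mean among nodules, 0.412 against 0.484 to 0.540 for the others. WT 130748 and HCC 124711 were nearest to each other, at 0.630. No nodule had another nodule as its nearest animal. HCC 125278, 125279 and 123206 were nearest to inflamed 148990, and HCC 123390 was nearest to WT 129296. The paper left some samples out of a principal component analysis of these data as outliers, without naming them in the sources used here. All 15 animals were kept here, since the rule uses all lists. Without WT 130748 the rule gave 1561 regions (9.22% of liver-wide regions). Without HCC 124711 it gave 535 (3.64%) that were missing from at least 2 of the other 4 nodules. Without both animals it gave 832 (4.89%), and without HCC 123206 it gave 490 (3.33%).

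The liver-wide regions were mostly retained. A peak was present in all 5 nodules in 11874 regions (81.0%) and in 4 nodules in 1942 (13.2%). Among the members, 570 had a peak in 3 nodules, 196 in 2, 67 in 1 and 16 in none. The last count was 26, 41 or 45 when HCC 124711, 125278 or 125279 was left out, and 35 without WT 130748. For scale, the same rule was applied with the groups exchanged, again as a description. Of 12961 regions with a peak in all inflamed livers and all nodules, 520 (4.01%) lacked one in at least 2 WT livers, and of 11953 regions with a peak in all WT livers and all nodules, 30 (0.251%) lacked one in at least 2 inflamed livers. Inflamed livers had the longest lists of the 3 groups on average.

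The nodules overlapped in part in the regions they lacked. A nodule had a peak in 51.1 ± 22.7% of the 849 regions (SD, n = 5). HCC 125279 kept 76.6% of them and HCC 125278 kept 74.3%, whereas HCC 124711 kept 38.6%, HCC 123390 kept 38.3% and HCC 123206 kept 27.7%. The values fell into a high pair and a low trio, and the high pair had the longest lists, of 41863 and 38547 peaks against 26235 to 29475 in the others. Over all liver-wide regions, 1339 (9.13%) were missing in HCC 124711, 1238 in HCC 123390, 964 in HCC 123206, 249 in HCC 125278 and 228 in HCC 125279. Of those missing in HCC 124711, 818 were missing in no other nodule, and this was so for 714 of those missing in HCC 123390. It was so for 350 of 964 in HCC 123206, 31 of 249 in HCC 125278 and 29 of 228 in HCC 125279.

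The commonest combination among the 849 regions was loss in HCC 124711 and HCC 123206 together, in 181 regions (21.3%). HCC 123206 and HCC 123390 lacked 112 regions as a pair, and HCC 124711 and HCC 123390 lacked 111. These 3 nodules with short lists, and no others, lacked 65 regions. Among the liver-wide regions, HCC 125278 and HCC 125279 were both without a peak in 37, which is 14.9% of those missing in the first and 16.2% of those missing in the second, beside 1.55% and 1.70% of all liver-wide regions missing in HCC 125279 and HCC 125278. HCC 124711 and HCC 123206 shared 364, which is 27.2% of the former's and 37.8% of the latter's, beside 6.57% and 9.13% of all liver-wide regions missing in HCC 123206 and HCC 124711. Over all pairs the largest share was 71.9%, of regions missing in HCC 125279 that HCC 123206 also lacked. Next was 64.7%, of those missing in HCC 125278 that HCC 123390 also lacked, beside 8.44% of all liver-wide regions. The smallest was 6.57%, of those missing in HCC 124711 that HCC 125279 also lacked, beside 1.55% of all. When every list was shortened to its best 25867 peaks by score, 774 regions met the rule among 12989 liver-wide regions (5.96%), and 375 of them (48.4%) overlapped the 849. The nodules then had peaks in 63.6%, 59.0%, 44.6%, 42.6% and 41.5% of the regions, in HCC 125278, HCC 124711, HCC 125279, HCC 123390 and HCC 123206. HCC 125279 had the third share in this set, which differs from the 849 in its members as well as in the length of all 15 lists. Of the 12989 liver-wide regions, 2.97% were missing in HCC 125278, 4.81% in HCC 125279, 5.28% in HCC 123206, 5.91% in HCC 124711 and 7.41% in HCC 123390, so that HCC 125278 and HCC 125279 again lacked the fewest. Other changes of list length moved the count further. With the top 50% of each list 452 regions met the rule (6.17% of 7330), of which 33 overlapped the 849, and with only the nodule lists shortened to 25867 peaks, chosen after the values were seen, 1651 did (11.3% of 14673).

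**Figure D1:**
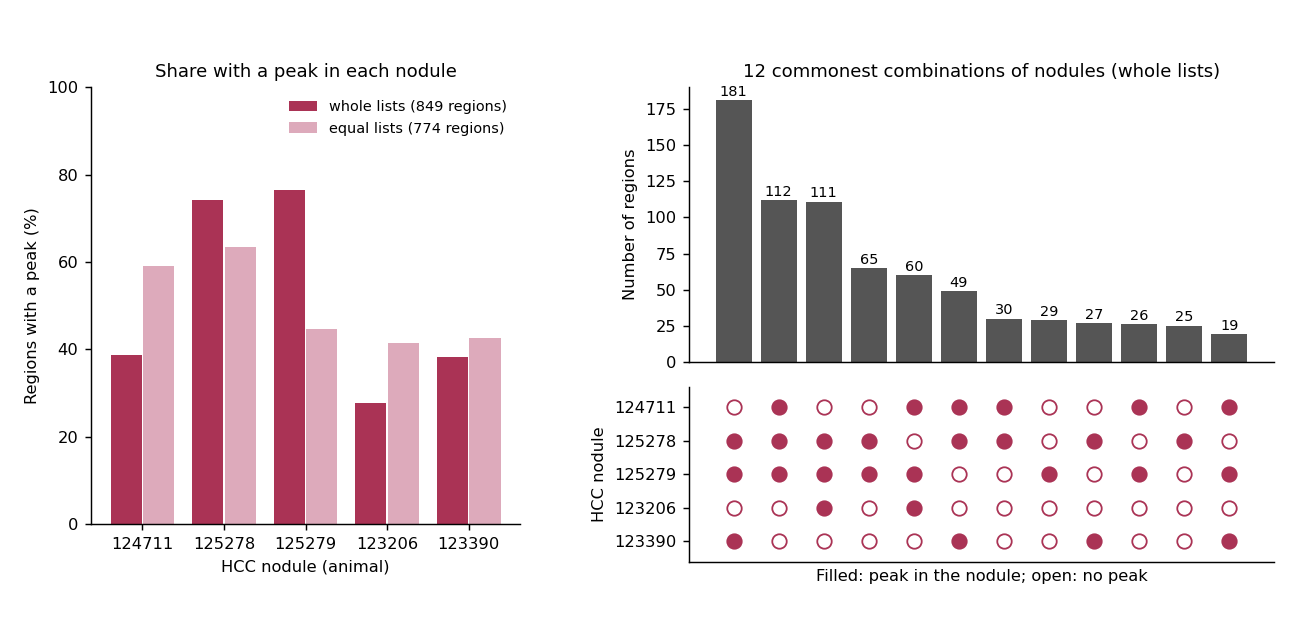
Left, percentage of regions missing from at least 2 nodules that had a peak in each HCC nodule (bars from 0), with whole lists (849 regions) and with lists of equal length (774 regions). Right, number of the 849 regions in each of the 12 commonest combinations of nodules, where filled circles mark a peak. The 181 regions missing in 124711 and 123206 form the tallest bar, and the 5 shares are 27.7 to 76.6% of the 849 regions and 41.5 to 63.6% of the 774, a set of which 375 overlap the 849.

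In WT and inflamed livers, the regions missing from at least 2 nodules were among the weaker liver-wide peaks. Within the list of an animal, their median score percentile was 37.3 to 49.6 in the 5 WT livers and 43.8 to 46.7 in the 5 inflamed livers. Regions kept in 5 nodules had medians of 70.4 to 87.5 in WT and 77.9 to 82.4 in inflamed livers, and in each of the 10 livers the members had the lower median. Taken over the 10 livers, the median percentile was 44.0 for the members, 54.4 for regions kept in 4 nodules and 77.7 for those kept in 5. The same lists chose the regions, so that no test is given. None of the 10 livers had more than 1 peak in 73.0% of members and in 59.3% of regions kept in 5 nodules. The best of several peaks counts and nodule peaks enter the merged bounds, so that part of the gap in strength can come from the selection. Of the 849 regions, 33 (3.89%) were in the upper 50 percent of all 10 lists, against 59.8% of those kept in 5 nodules. None of them had the tied high score in all 10 livers, as 1658 of the regions kept in 5 nodules did.

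The share of liver-wide regions that were missing from at least 2 nodules fell with their strength at each step. It was 52.6% (30 of 57) at a median percentile of 10 to 20, 28.1% (195 of 693) at 30 to 40, 8.37% (158 of 1888) at 50 to 60 and 0.149% (5 of 3347) at 90 to 100. Regions of 40 to 50 held the largest number, 210. In a nodule that kept a peak, that peak was weak too, with a median percentile within the list of 42.1, 43.9, 40.9, 33.0 and 43.2 in HCC 124711, 125278, 125279, 123206 and 123390, beside 70.2 to 81.2 for the regions kept in 5 nodules.

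**Figure D2:**
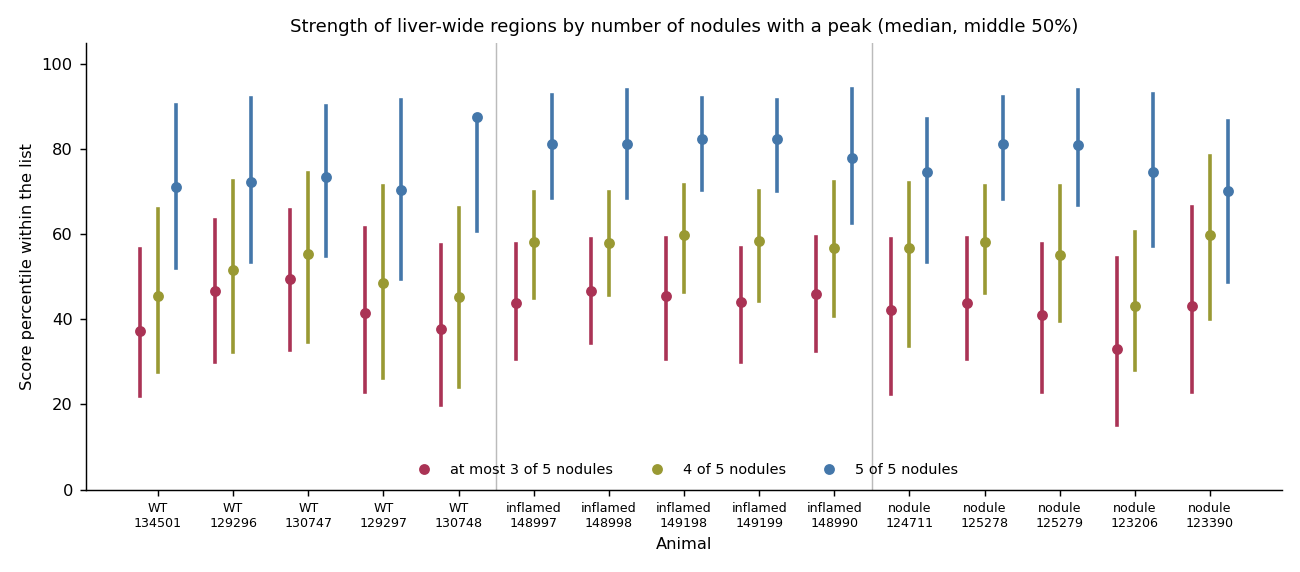
Score percentile within the list of each animal (vertical axis) for liver-wide regions with a peak in at most 3, in 4 and in 5 nodules. Points are medians and lines the middle 50 percent; in nodules only regions with a peak enter. Regions missing from at least 2 nodules have the lowest median in each of the 15 animals, from 33.0 to 49.6.

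**Figure D3:**
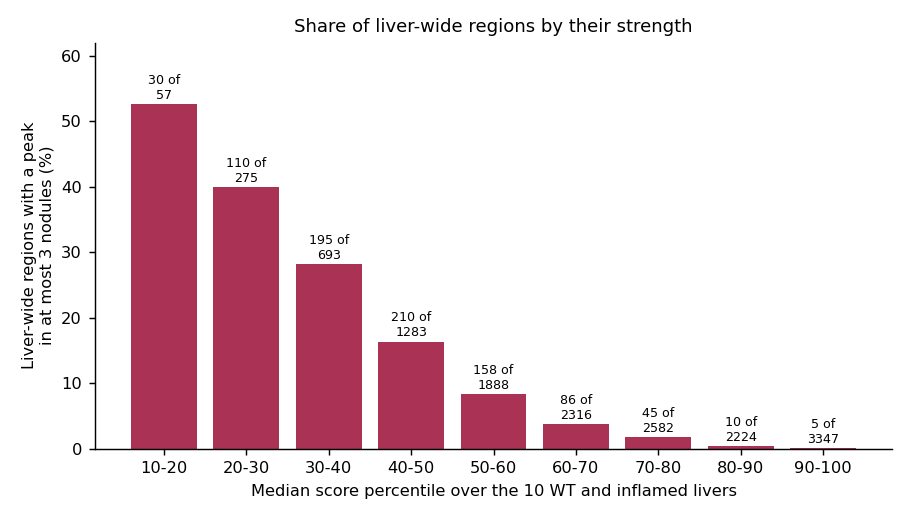
Percentage of liver-wide regions with a peak in at most 3 nodules (bars from 0) by their median score percentile over the 10 WT and inflamed livers, with the number of regions above each bar. The bars fall from 52.6% at 10 to 20 to 0.149% at 90 to 100.

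They were also narrower. The merged regions had a median width of 5231 bp, against 5960.5 bp for those kept in 4 nodules and 7379 bp for those kept in 5, and 91 of them (10.7%) were 10 kb or wider, against 35.9% of those kept in 5. Peaks of nodules enter the merged width, and members lack some of them by the rule, so that part of this gap can come from the selection. The core of a region is the part under peaks of all 10 WT and inflamed livers, without nodule peaks. Its median length was 1957 bp in members, 2054 bp in regions kept in 4 nodules and 2967.5 bp in those kept in 5. The core was summed within the merged bounds, which nodule peaks help to set, so that the selection can enter this gap too. No base was under peaks of all 10 livers in 35 members. Where a nodule kept a peak in a member with a core, the peak lay over the core in 97.4 to 99.5% of cases. For members without a peak in a nodule, the nearest peak of that nodule was at a median distance of 11.6 kb in HCC 125279, the shortest, and of 25.3 kb in HCC 123390, the longest.

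The 16 regions without a peak in any nodule lay on 11 chromosomes and were 2411 to 11128 bp wide. The best supported, with the highest minimum percentile over the 10 livers, was chr10:126614166-126622892. Its score percentile within the list was 34.0, 43.0, 47.4, 43.6 and 58.4 in WT 134501, 129296, 130747, 129297 and 130748. It was 45.6, 51.1, 50.9, 44.5 and 35.8 in inflamed 148997, 148998, 149198, 149199 and 148990. WT and inflamed values overlapped, all in the middle of their lists, and peaks covered 4112 to 8727 bp in each of the 10 livers against 0 bp in each nodule. Next by this rule were chr3:149506899-149510989, chr15:93377627-93386874 and chr4:107058383-107062761, with lowest percentiles of 20.4, 19.3 and 14.4. The chromosome 4 region was covered by 2209 to 4379 bp in WT livers and by 1898 to 2520 bp in inflamed livers.

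The other 12 regions absent from all nodules are given by position, with no order of rank. On chromosomes 1 to 3 they were chr1:167438999-167441409, chr2:127212162-127223289, chr3:58941725-58947515 and chr3:108572423-108574920. On chromosomes 4 to 6 they were chr4:150787618-150795713, chr5:96879099-96889306, chr5:111556637-111559154 and chr6:38996515-39000653. The last 4 were chr7:105696288-105703793, chr7:106789403-106793582, chr14:29586953-29592824 and chr19:16521492-16527131. The strongest of the 16 by its median percentile, 64.9, was the region starting at 150787618 on chromosome 4, and the weakest, at 11.7, was the one starting at 111556637 on chromosome 5.

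Of regions kept in a single nodule, chr6:136852105-136872112 was the best supported. It was 20008 bp wide, and its score percentile within the list was 90.4, 92.1, 90.2, 91.5 and 62.7 in WT 134501, 129296, 130747, 129297 and 130748. In inflamed 148997, 148998, 149198, 149199 and 148990 it was 62.6, 79.2, 61.7, 68.1 and 79.7. WT livers other than 130748 lay above every inflamed liver, and WT 130748 lay among them. HCC 125278 alone had peaks there, over 12223 bp and at a percentile of 53.2.

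Of those kept in 2 nodules, chr2:105062169-105070946 had the tied score of 3100 in all 5 WT livers. Its percentile within the list was 87.5 to 92.1 in WT livers and 66.6 to 69.6 in inflamed livers, with no overlap. HCC 125279 had the same tied score there, over 7152 bp, HCC 123206 had a peak of 2537 bp at a percentile of 55.7, and the other 3 nodules had none. A neighbouring rank was held by chr17:46569306-46586156, covered by a median of 7604 bp in WT and 3278 bp in inflamed livers, and kept in HCC 124711 and HCC 125279.

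Of those kept in 3 nodules, chr14:11989880-11995968 had the highest minimum, 72.0, over the 10 livers. WT 134501, 129296, 130747, 129297 and 130748 had percentiles within the list of 90.4, 73.8, 72.9, 72.0 and 87.5, and the 5 inflamed livers had 82.1 to 92.0. HCC 123206 and HCC 125279 were as high as the livers, at 92.9 and 88.2, HCC 124711 was lower at 58.8, and HCC 125278 and HCC 123390 had no peak. At chr7:6679300-6686954, HCC 123206 had 72.1, beside 67.3 to 87.5 in WT and 71.1 to 85.9 in inflamed livers, and HCC 125278 and HCC 125279 had 22.2 and 30.7. Nodules ranged from no peak to a peak as strong as in liver at one region.

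A median percentile of 90 or more was reached by 5 of the 849 regions, which were chosen after their values were seen, and all 5 had peaks in 3 nodules. They were chr6:141886843-141899132, chr7:73863872-73874762, chr9:121855618-121872363, chr14:69073464-69081260 and chr19:41065921-41075101. At the chromosome 9 region, the percentile within the list was 67.2 to 91.5 in WT livers, 91.6 to 94.0 in inflamed livers and 87.0, 78.0 and 92.9 in HCC 124711, 125279 and 123206, with none in HCC 125278 and HCC 123390. All 5 inflamed livers, WT 130747, 129297 and 130748, and HCC 124711 and 123206 had the tied score of 3100 there. Differences among the percentiles of these animals follow from the ties in each list and not from the scores. The widest member, chr7:147931197-147960960 (29764 bp), was covered over 22225 to 28363 bp in 4 WT livers, 13101 bp in WT 130748 and 14035 to 17010 bp in inflamed livers. Coverage there was 25994 bp in HCC 123390, 8137 bp in HCC 124711 and 2562 bp in HCC 125278, and 0 bp in HCC 125279 and HCC 123206. Just outside the rule, with a peak in 4 nodules, chr7:73450929-73462589 and chr3:94583830-94592556 had lowest percentiles of 90.2 and 87.5 over the 10 livers.

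**Figure D4:**
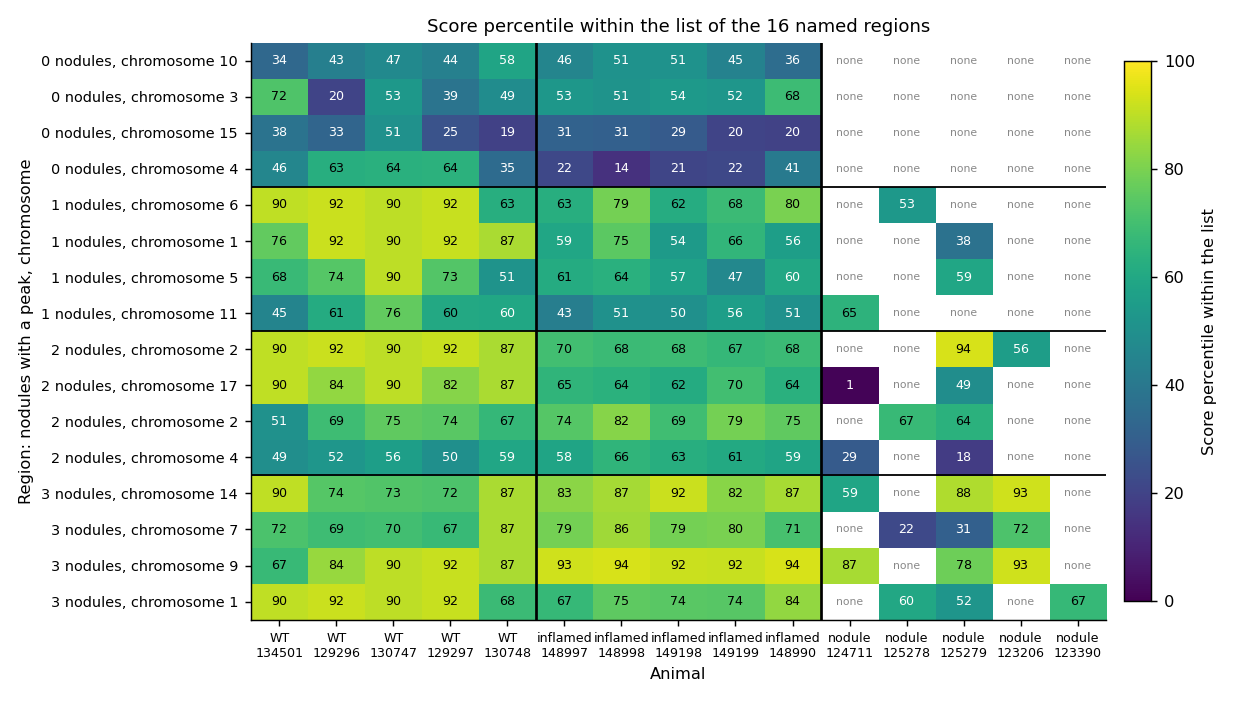
Score percentile within the list (colour and number) in each of the 15 animals for the 16 regions named by rule, 4 for each number of nodules with a peak, given by their chromosome. White cells are animals without a peak. At the chromosome 14 region, values are 72.0 or more in all 10 livers and from no peak to 92.9 in nodules.

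The 849 regions were spread over all 19 chromosomes. They were 3.31% of the liver-wide regions on chromosome 18 and 7.16% on chromosome 9, the lowest and highest shares. In single nodules, 2 values chosen for their size after they were seen were those of HCC 125279, which lacked 3.92% of the liver-wide regions of chromosome 8 and 1.55% of those on all chromosomes, and of HCC 123390, which lacked 12.9% on chromosome 4 and 8.44% on all. The median distance to the nearest other member was 422 kb. Most members stood alone among their liver-wide neighbours, and 226 of the 849 had another member as a direct neighbour. Of 14646 neighbouring pairs of liver-wide regions, both were members in 125. Members were 5.79% of the liver-wide regions, and whether they lay side by side more often than this share gives was not tested. In order along the chromosome they formed 623 single regions, 85 pairs, 11 runs of 3, 4 runs of 4 and 1 run of 7.

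The run of 7 was at chr13:94589996-94949918 and spanned 360 kb. All 7 regions had a peak in HCC 125278 and 6 in HCC 125279, whereas HCC 124711 had 2, HCC 123390 had 2 and HCC 123206 had 1. In the livers these were regions of middle strength, with median percentiles within the list of 36.0 to 61.3 over the 10 animals. In HCC 123206, 5 consecutive liver-wide regions from 94758120 to 94949918 were without a peak. The longest such stretch was 6 regions in HCC 124711 (chr5:96647555-97354344) and in HCC 123390 (chr2:166941929-167092597), and 3 in HCC 125278 and in HCC 125279. Snapshot windows of the study at Gsta2, Col3a1, Cyp2a5, Afp, Cyp2c37, Abcc4, Cyp4a14 and Epcam held 22 merged regions, 4 of them liver-wide, and none was a member. Of the 4, 1 at Abcc4 had a peak in 4 nodules. With members at 5.79% of all liver-wide regions, 4 regions are too few for this count to say anything about these genes.

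Inflamed and WT livers, the stages without nodules in this series, were then compared at the same regions. Presence of peaks in these 10 livers was fixed by the rule, while their strength and extent were not used by it. Strength was the score percentile of a region among the 14665 liver-wide regions of an animal, a scale with the same mean in every animal, and limma was fitted over all of these regions with Benjamini-Hochberg adjustment. In inflamed livers the percentile was lower in 205 of the 849 regions (24.1%) and higher in 42 (4.95%), at an adjusted p under 0.05 in limma. Among all liver-wide regions it was lower in 9.04% and higher in 8.35%. The median difference, inflamed minus WT, was -8.68 percentile points over the members and -0.08 over all liver-wide regions.

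The share with a lower percentile in inflamed livers was 25% of regions in no nodule, 28.4% in 1 nodule, 25% in 2 and 23.3% in 3, and it was 15.3% of those in 4 and 6.93% of those in 5. Since members were weaker, regions of like strength are set side by side. At a median percentile within the list of 40 to 50 the share was 30.5% of 210 members and 14.5% of 677 regions kept in 5 nodules, and at 60 to 70 it was 26.7% of 86 and 10.3% of 1898. At 20 to 30 it was 10.9% of 110 and 11.3% of 71, with no such gap. The difference between these sets was not tested.

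Tied scores and the scale were varied in turn. Among the 5419 liver-wide regions below the tied score of 3100 in all 10 livers, a restriction chosen after the values were seen, 197 of 717 members (27.5%) were lower and 43 (6.00%) higher in inflamed livers, beside 16.5% and 10.5% of all 5419 regions. This restriction left the members' counts near those above and raised the shares over all regions, and it removed strong regions together with tied ones. The balance depended on the scale. With the percentile within the whole list, in which inflamed lists are longer and the median difference over all liver-wide regions was 7.22 points, 112 members (13.2%) were lower and 137 (16.1%) higher in inflamed livers, against 3.72% and 19.5% of all liver-wide regions. The median of the members was then 1.07, that is below the shift of all regions. Among animals left out, WT 130748 moved both counts, and without it 360 members were lower and 79 higher on the first scale, beside 17.9% and 20.6% of all liver-wide regions. Without inflamed 148997, 149198 or 149199, the members lower on this scale were 125 (14.7%), 127 (15.0%) and 135 (15.9%), beside 5.23%, 5.26% and 5.86% of all liver-wide regions.

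The smallest p for a lower percentile was at chr2:29585213-29596328, kept only in HCC 125279. All 5 WT livers had the tied score of 3100 there, so that their values are the shared rank of the ties, and no error or p is given for the size of the difference. Within the list, its percentile was 87.5 to 92.1 in WT livers, 17.2, 1.65, 13.3, 27.3 and 37.5 in inflamed 148997, 148998, 149198, 149199 and 148990, and 47.3 in HCC 125279. Among liver-wide regions, it was 77.2 to 86.6 in WT and 0.0443 to 7.77 in inflamed livers, a difference of -81.0 points, and of -82.7 without WT 130748. Peaks covered 5320 to 11116 bp in WT livers and 4008 to 4752 bp in inflamed livers. Second came chr2:105062169-105070946, described above and also tied in all 5 WT livers, with a difference of -48.8 points, and of -50.4 without WT 130748.

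In the other direction, chr18:78449057-78458669 had a percentile among liver-wide regions of 8.34, 9.91, 6.43, 5.96 and 7.52 in WT livers and of 38.9, 42.0, 54.7, 34.5 and 47.0 in inflamed livers. The groups did not overlap, and inflamed livers were higher by 35.8 ± 4.11 points (SE, limma, adjusted p = 0.000370). The region chr13:12459836-12463484 was higher by 38.5 ± 4.54 points (SE, limma, adjusted p = 0.000426). Without WT 130748 the differences were 35.8 and 39.3 points. Both were kept in HCC 125278, 125279 and 123206. At the first, peaks covered 1890 to 5140 bp in WT livers, 8514 to 9577 bp in inflamed livers and 2704 to 4811 bp in these nodules.

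Covered length was compared in the same way, as log2 of the base pairs of a region under peaks. It was shorter in inflamed livers in 121 of the 849 regions (14.3%) and longer in 45 (5.30%) by limma, beside 8.77% and 5.54% of all liver-wide regions. The median difference was -0.12 over the members and -0.06 over all liver-wide regions. Without WT 130748, 263 members were shorter and 63 longer, beside 23.0% and 9.05% of all liver-wide regions. Without inflamed 149199, 76 members (8.95%) were shorter, beside 5.27% of all liver-wide regions. Without inflamed 148997, 29 members (3.42%) were longer, a share near the 3.75% of all liver-wide regions. Of the 205 regions with a lower percentile and the 121 with a shorter length, 88 were the same, 42.9% of the former and 72.7% of the latter. Over all liver-wide regions these shares were 39.8% and 41.0%. Of the 42 members with a higher percentile and the 45 with a longer length, 18 were the same (42.9% and 40%), beside 32.2% and 48.5% over all liver-wide regions.

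The smallest p for a shorter length was at chr9:107354307-107361156, kept only in HCC 125278. Peaks covered 6279, 6654, 6215, 5959 and 5795 bp in WT livers, 3103, 2960, 2663, 2886 and 3034 bp in inflamed livers and 2529 bp in this nodule, with a log2 difference of -1.08 ± 0.07 (SE, limma, adjusted p = 1.36e-05). At chr4:150787618-150795713, which no nodule kept, peaks covered 6191 to 7688 bp in WT and 1738 to 2631 bp in inflamed livers, a log2 difference of -1.65 ± 0.11 (SE, limma, adjusted p = 1.96e-05).

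Longer peaks in inflamed livers were clearest at chr12:102243247-102258892, where 3183 to 5603 bp were covered in WT and 9900 to 14856 bp in inflamed livers (log2 difference 1.70 ± 0.16, SE, limma, adjusted p = 0.000121). HCC 124711, 123206 and 125278 had 12389, 10548 and 8164 bp there, and HCC 125279 and HCC 123390 had none. At chr8:128432033-128447943 coverage was 6981 to 8362 bp in WT and 12435 to 14725 bp in inflamed livers (log2 difference 0.83 ± 0.08, SE, limma, adjusted p = 0.000132). Its score percentile within the list went the other way, at 65.5 to 73.7 in WT and 44.4 to 62.5 in inflamed livers, without overlap. HCC 125279 had 13018 bp, within the range of inflamed livers, HCC 124711 had 3074 bp, and the other nodules had none. Without WT 130748 the log2 differences of these 4 regions were -1.10, -1.60, 1.68 and 0.87.

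**Figure D5:**
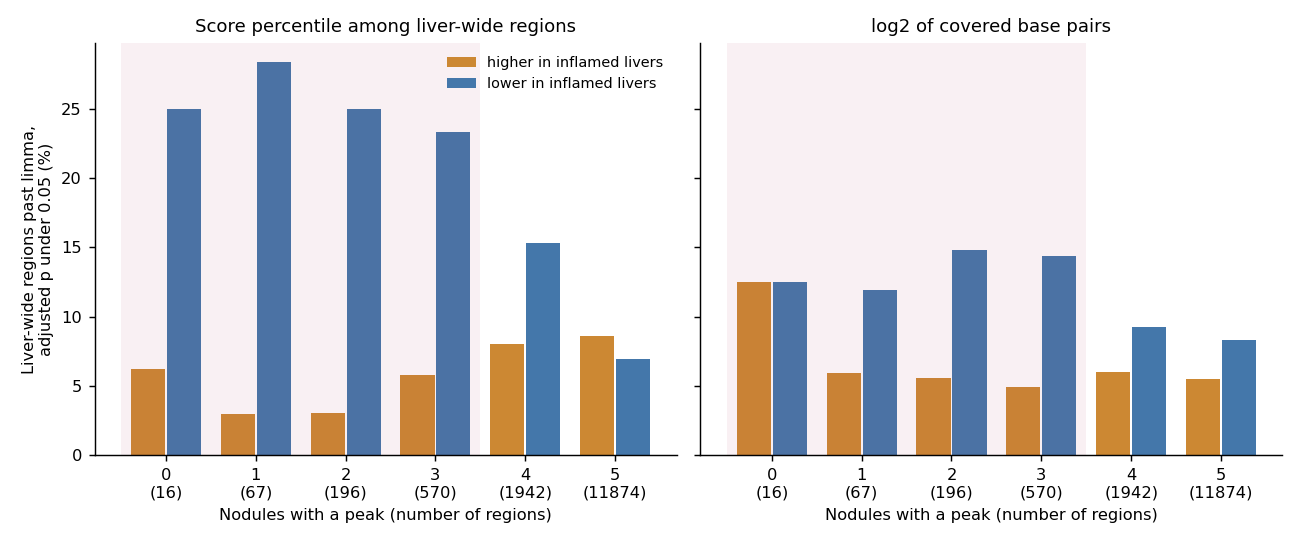
Percentage of liver-wide regions higher or lower in inflamed than in WT livers (limma, adjusted p under 0.05, bars from 0) by the number of nodules with a peak; left, score percentile among liver-wide regions, right, log2 covered base pairs. The shaded groups are the 849 regions missing from at least 2 nodules, with 23.3 to 28.4% lower on the left against 6.93% of the 11874 regions kept in 5 nodules.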

How the data were processed

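Per the submitters' processing notes the genome build was mm9 and the tools were Bowtie 0.12.7 and MACS 1.4. The authors deposited 1 peak list per animal, with positions and a score per peak (50 or more). Comparisons of strength used scores as ranks, within the list or among the liver-wide regions of an animal. With whole lists, the member rule and covered length used positions only. An IgG control was not analysed here. The members and lists were chosen with earlier results of these data known. Regions were merged in Python 3.11.15 with NumPy 2.4.6, and strength and covered length were compared in 5 WT and 5 inflamed livers with limma 3.58.1 in R 4.3.3 over 14665 regions. Regions named or drawn were, for each number of nodules, the 4 with the highest minimum percentile over 10 livers. The widest region, the longest runs and the 2 regions with the smallest p per direction and fit were also named. So were the 16 in no nodule, the 5 with a median percentile of 90 or more and 2 just outside the rule. On simulated data the rule and both fits recovered 200 of 200 planted regions, with 0, 12 and 14 others called. For the fits, the planted shifts were large against each region's own spread, in normal noise without ties. For the rule, other regions had peaks placed at random and could hardly meet it. These tests check the code and do not show how the fits behave with tied scores or small differences. Alternatives were other list lengths, overlaps, scales and limits, and leaving out each animal. Figures were drawn with matplotlib 3.10.9.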

Additional observations from a re-analysis of the deposited data

Results flagged for a closer look

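In 8 of 48 groups of 5 animal values, 1 animal's gap to the nearest other, over the range, exceeded Dixon's 95% critical value. Chance gives about 1 in 20 for independent values without ties. These groups reuse the same animals and some values are tied, so that the 8 cannot be set against that rate. WT animal 130748 had a mean Jaccard index of 0.505 to its own group, against 0.666 to 0.706 for the other WT livers. It also stood apart in score percentile within the list at chr6:136852105-136872112 (62.7 against 90.2 to 92.1), chr1:62852234-62860698 (68.1 against 90.2 to 92.1) and chr7:6679300-6686954 (87.5 against 67.3 to 71.6). In the first pair of these regions the other 4 WT livers all had the tied score of 3100, and in the last WT 130748 alone had it, so that the gaps there are between a tied rank and a lower one. HCC animal 123206 had a median percentile of 33.0 over the members it kept, against 40.9 to 43.9 in the other nodules. Inflamed animal 148990 was high at chr3:149506899-149510989 (68.4 against 51.3 to 54.0) and at chr4:107058383-107062761 (40.6 against 14.4 to 21.8). WT animal 134501 was low at chr1:36836418-36843056 (75.8 against 87.5 to 92.1), where the other 4 WT livers were again tied.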

How the results depend on the processing

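Read depth is unknown, and a weak region can lack a peak in a list for that reason; the part of depth in the 849 regions was not tested. With its share of the liver-wide regions in each setting, the count was 849 (5.79%) above and 774 (5.96%) with equal lists. It was 699 (9.19%) with a peak over at least 50% of the region and 870 (6%) with a peak over the core. With chromosome X it was 861 (5.76%). In the top 50% of each list it was 452 (6.17%), of which 33 overlapped the 849. It was 279 (1.90%) with at most 2 nodules, 16 (0.109%) with no nodule and 4049 (6.69%) in bins of 1000 bp. Chosen after seeing the data, it was 1651 (11.3%) with only the nodule lists made equal. Leaving out 1 animal gave 490 to 1561 (3.33 to 9.22%). Regions in no nodule, 16, became 8 in the top 50%, 45 without WT 130748 and HCC 124711 together, and 16 to 45 without 1 animal. Inflamed against WT, 2549 regions were called for score and 2099 for covered length; without 1 animal these were 1544 to 5654 and 1331 to 4705. Among regions below the tied score in all 10 livers, chosen after seeing the data, 1466 of 5419 were called for score. The highest counts were those without WT 130748. For score, counts of 1544, 1573, 1622 and 1660 were without inflamed 148997, inflamed 149198, WT 129297 and inflamed 148998, and for length 1331 and 1373 were without inflamed 149198 and 149199. No other setting moved these 2 counts by over 1.5 times. The median percentile of the members was 44.0 within the list and 14.1 among liver-wide regions. The run of 7 was the longest also when 1 retained region was allowed. No paired analysis was possible because the groups shared no replicate numbers. The cause of these differences was not tested.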
